A study of Saccharomyces cerevisiae with 35 samples.

Results

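In a pool of barcoded budding yeast (Saccharomyces cerevisiae) strains that met rapamycin in the same flask, 7 wild-type strain codes (CB, CD, CF, CG, CH, CI and CJ) held few transcripts of the mitochondrial genome, and their late response to the drug is described here beside that of the other 65 wild-type codes. The 7 codes were chosen from measured values. In untreated cells, transcripts of the mitochondrial genome made up 20.0 to 32.8 counts per 1000000 UMIs (CPM) in each of the 7 codes and 185 to 236 CPM in the others; the code just inside the choice was CH at 32.8 CPM and the one just outside was FI at 185 CPM. Together the 7 codes held 6500 of 173347 cells, 786 to 1021 cells a code, beside 156029 cells of the other 65 codes and 10818 cells of 6 fpr1 deletion codes. The 7 codes are called low strains below, and the 65 codes other strains.

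All cells were labelled as background FY4/5 and grew in rich medium (YPD) at 30 °C. Overnight cultures from a multiwell plate were pooled into 1 flask per culture, so low strains, other strains and strains without FPR1, the gene of the rapamycin-binding protein, shared each of 2 cultures. Culture was pumped into a new collection vessel every 10 min, and the cells of each vessel are treated here as 1 library. The untreated groups are the intervals from -20 to -10 and from -10 to 0 min. The late groups are the intervals from 40 to 50 and from 50 to 60 min after 200 ng/mL rapamycin, so each strain set has 4 sums of cells before and 4 late, 2 from each culture. The libraries are numbered by interval, 1 and 2 before the drug and 7 and 8 late. Both strain sets are wild type at FPR1. The sources used here give no genotype that sets the 7 codes apart and do not say whether a code is 1 clone.

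The yeast mitochondrial genome encodes a small set of respiratory subunits and a ribosomal protein, and all other mitochondrial proteins are imported from the cytosol. Yeast cells with failing mitochondria are known for the retrograde response, in which Rtg1 and Rtg3 turn on CIT2 and other genes that supply glutamate precursors, and for the activation of multidrug transporter genes through Pdr3. Rapamycin bound to Fpr1 inhibits TORC1, the kinase complex that keeps ribosome biogenesis and ribosomal protein genes on in rich medium and keeps nitrogen-scavenging, stress and retrograde genes off.

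The late libraries of culture 1 stood apart: they held 39 and 13 low-strain cells, against 437 and 557 in culture 2, and 57177 and 23281 low-strain UMIs. In these libraries, 1 UMI of a low-strain sum equals 13.6 and 29.2 CPM after scaling, so single genes are often at 0. The mitochondrial transcripts of low strains stood at 12.2 and 13.9% of the other strains' level in the untreated libraries of culture 1 and at 12 and 11.4% in those of culture 2. Late they stood at 26.8 and 50.0% in culture 1, on 14 and 9 UMIs, and at 12 and 18.4% in culture 2. Low-strain sums ran from 23281 to 2187556 UMIs and other-strain sums from 3970017 to 66926794, and the median cell held 1419 to 3026 UMIs in low strains and 1731 to 5591 in other strains. Of 169649 barcodes, 3646 occurred in more than 1 library, including those of 287 low-strain cells. The level of FPR1 was 1365 to 1941 CPM of totals in low strains, 907 to 1821 in other strains and 13.6 to 74.9 in the deletion strains, as the labels require. Haploid-specific genes summed to 77.7 to 99.5 CPM in untreated low strains and 52.8 to 55.5 in other strains, and late to 198 to 430 and 221 to 234 CPM.

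Low strains responded to rapamycin, with a response smaller than that of other strains for most genes that differed. Of 5441 genes tested, 3106 changed late in low strains (57.1%; 1297 rose and 1809 fell) and 4473 in other strains (82.2%; 2043 rose and 2430 fell), in edgeR's quasi-likelihood test with Benjamini-Hochberg (BH) adjusted p under 0.05. The count is not comparable between sets, because low-strain sums were shallower. Both sets shared 1246 genes that rose and 1751 that fell. The difference between the 2 responses (low minus other, on the log2 scale) passed the same threshold for 734 genes (13.5%), 468 higher and 266 lower in low strains. Of these 734 genes, 689 (93.9%) had the smaller change in low strains, against 70.9% of all genes tested. Of the 468 higher differences, 451 were of genes that fell in other strains, where 44.7% of all genes fell. Of the 266 lower differences, 248 were of genes that rose there, where 37.5% of all genes rose. The other-strain response is a term of the difference, so part of this alignment is built in.

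The 4 sums on a side come from 2 cultures, so p-values measure a spread that is partly between successive samples of a flask. With each library as a block, which compares the strain sets within the library they shared, 1513 genes were called (918 higher, 595 lower). Without library 8 of culture 2, which held the most late low-strain cells, 244 were called, and without its library 7 485. With the strain codes as the units, 7 low against 65 other, 1888 of 5426 genes were called (34.8%, with 832 higher and 1056 lower). Of the 734 genes, 730 were among them in the same direction. Both fits use the same cells, so this overlap is not independent support. The codes shared the 2 flasks, so p-values of the strain test measure spread between codes and not between cultures. The common coefficient of variation was 2.77% in the strain test and 12.7% in the sums. Nearly all late low-strain RNA of the strain test came from culture 2. In culture 2 alone the strain test called 1656 genes (30.6%, with 13.7% higher and 16.9% lower), 700 of the 734 in the same direction. The split depends on the scaling: relative to library totals instead of TMM factors, the median of all genes moved from 0.04 to -0.18, and 28.7% instead of 63.8% of the called differences were higher. The split of each set's own response depends on it more: relative to library totals the median response of all genes was 0.76 in low and 0.96 in other strains, 3074 genes rose and 728 fell in low strains, and 3763 rose and 997 fell in other strains. Directions below are relative to the TMM scale.

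**Figure D1:**
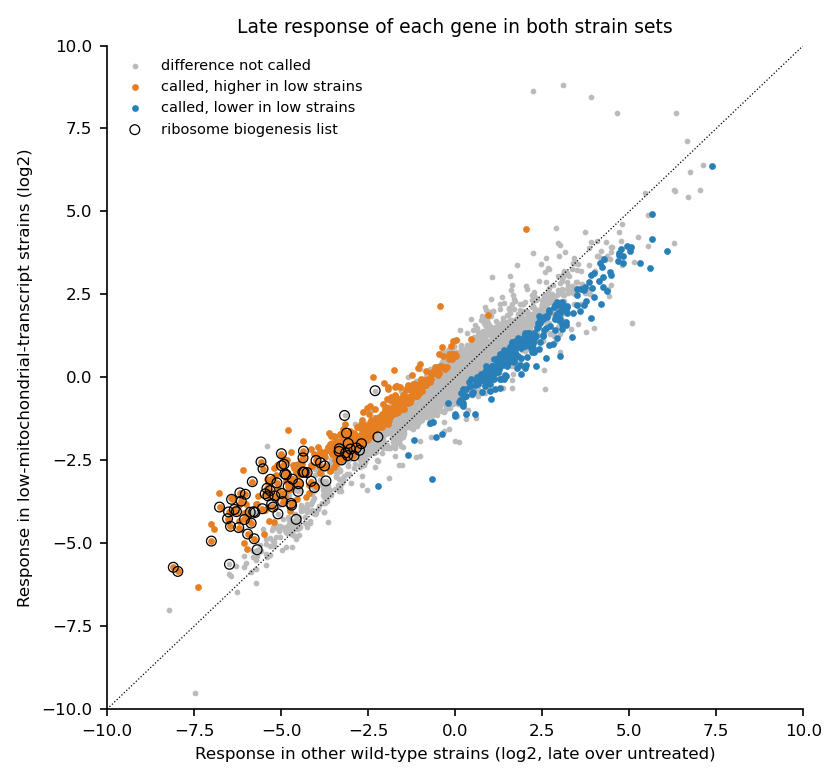
Each point is 1 of the 5441 genes, with its late response (log2, late over untreated) in other wild-type strains on the horizontal axis and in low-mitochondrial-transcript strains on the vertical axis; the dotted line marks equal responses, colour marks the 468 higher and 266 lower called differences, and open circles mark the 77 ribosome biogenesis genes. The ribosome biogenesis genes lie above the line at the left, where genes fell in other strains. The 266 called lower differences lie below it, and 248 of them are of genes that rose in other strains.

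Ribosome biogenesis genes fell less far in low strains. Of 77 genes on the list, all tested, 75 fell in low strains and 77 in other strains, where 33.2 and 44.7% of all genes fell. The median response was -3.32 in low and -4.99 in other strains, against medians of -0.09 and -0.11 over all genes. The difference was called higher for 53 of the 77 and lower for 0, where 8.6% of all genes were called higher, and the median difference was 1.58 against 0.04 over all genes. In the strain test 61 of the 77 were called higher, where 15.3% of all genes were.

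In the summed list the gap arose from both ends, while the median gene differed more before the drug. Gene by gene on the TMM scale, with 1 CPM added to each level, the median log2 ratio of low to other was -0.86 untreated and 0.06 late. Over all genes tested it was -0.09 and -0.17. Summed over the list, ribosome biogenesis transcripts stood at 7295, 7480, 7648 and 7050 CPM of library totals in the untreated sums of low strains (culture 1, then culture 2, in order of time). Other strains stood at 11057, 9804, 10834 and 10050 CPM before the drug. Late the order turned: low strains stood at 944, 816, 1184 and 1485 CPM and other strains at 669, 803, 884 and 913 CPM. The untreated groups did not overlap, and each late low-strain value lay above that of the other strains in the same library, although the value of 816 CPM rested on 19 UMIs with an exact 95% Poisson interval of 491 to 1274 CPM, which covers counting error only. Taken by strain code in culture 2, 7 of the 7 low codes lay below every other code before the drug (6948 to 7916 against 10010 to 10987 CPM) and 7 of the 7 lay above every other code late (1183 to 1502 against 832 to 1064 CPM).

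The separation was already present in the middle of the course. From 20 to 30 min, low strains stood at 1119 CPM in culture 1 and 1181 in culture 2, and other strains at 669 and 799 CPM. From 10 to 20 min the sets were close, at 1813 against 1631 CPM in culture 1 and 1514 against 1480 in culture 2. In culture 2 low strains then rose from 1036 CPM at 30 to 40 min to 1485 at 50 to 60 min, and other strains went from 744 to 913 CPM.

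**Figure D2:**
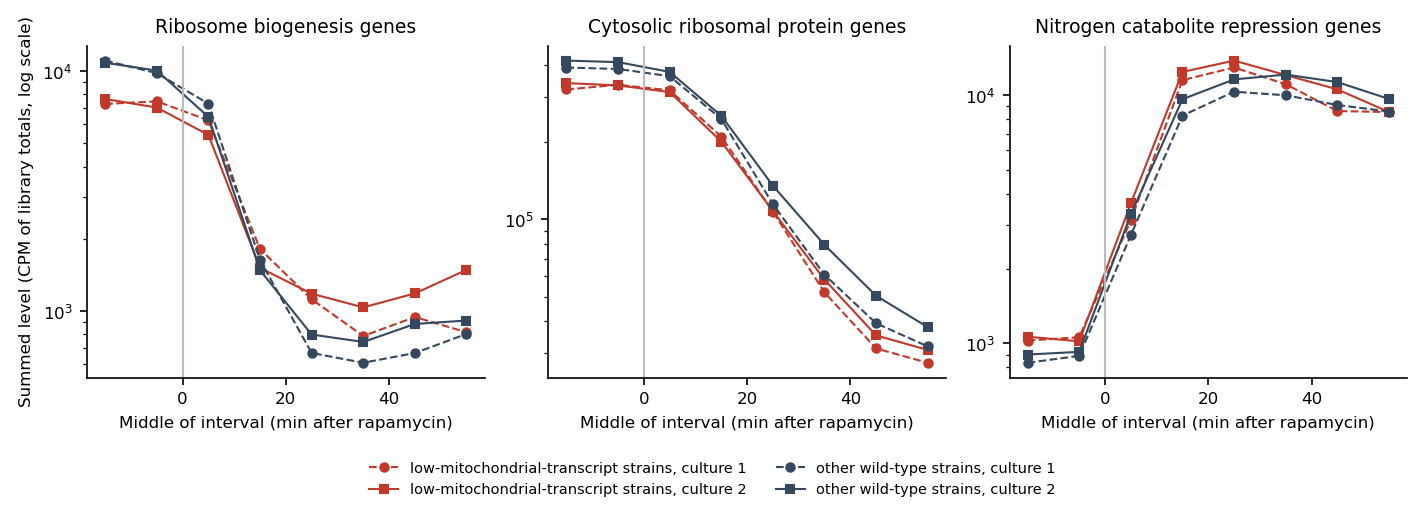
Summed level of 3 gene lists (CPM of library totals, log scale) against the middle of each 10 min interval, for low-mitochondrial-transcript strains (red) and other wild-type strains (dark), with culture 1 dashed and culture 2 solid; the grey line marks the addition of rapamycin. Ribosome biogenesis transcripts start lower in low strains and end higher in culture 2 (1485 against 913 CPM), while ribosomal protein transcripts stay lower in low strains in all late libraries.

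Cytosolic ribosomal protein genes fell in both sets. Of 137 tested, 135 fell in either set, with medians of -4.41 in low and -4.60 in other strains. The difference was called higher for 9 and lower for 0, where 8.6% of all genes were higher, and the median difference was 0.24. That count depends on the fit: with each library as a block 68 were higher and 8 lower, where 918 and 595 of the 5441 genes were, and with only cells of 1000 to 3000 UMIs 18 were higher, where 307 genes were. Without library 8 of culture 2, 4 were called higher, and without that of culture 1, 15, where 132 and 546 of all genes were. In the strain test 50 were higher and 24 lower, where 15.3% and 19.5% of all genes were. Summed, they took 321713 to 340557 CPM of the untreated low-strain sums and 386672 to 416866 CPM of the other sums. Late they took 27576 to 35262 CPM in low and 31944 to 50359 CPM in other strains, lower in low strains in each of the 4 libraries. Many of these genes come in near-identical pairs, whose reads the counting could split. In the median cell their share fell from 32.1% to 3.07% of UMIs in low strains and from 40.9% to 3.97% in other strains. No late low-strain cell held more than 20% of its UMIs in these genes: 0 of 1046 cells, which allows a share of up to 0.287% by the limit of 3 counts and of 0.352% by the exact 95% interval, against 61 of 29041 other-strain cells (0.210%, exact 95% interval 0.161 to 0.270%). Among fpr1 deletion cells of the same late libraries, 2403 of 2830 (84.9%) were above that share.

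The size of the ribosome biogenesis gap varied with the depth of a cell. Among late cells of culture 2 with 500 to under 1000 UMIs, these genes stood at 2341 CPM in low strains (173 cells) and 1181 CPM in other strains (733 cells). With 1000 to under 2000 UMIs the levels were 1515 and 1013 CPM, with 2000 to under 3000 1239 and 969, and with 3000 to under 5000 980 and 885. With 5000 or more UMIs low strains were lower, at 799 CPM on 55 UMIs in 12 cells against 855 CPM. Before the drug, low strains were lower in each of these 5 bands, at 6521 to 8372 CPM against 8708 to 10698. A fit with only cells of 1000 to 3000 UMIs in both sets was chosen after the depths were seen. In it 43 of the 77 genes were called higher with a median difference of 1.61, where 307 of all genes were. Deletion cells in the late libraries kept ribosome biogenesis transcripts at 9348 to 10335 CPM and ribosomal protein transcripts at 294161 to 321108 CPM, so RNA shed by them could reach other droplets; its part in the result was not tested.

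**Figure D3:**
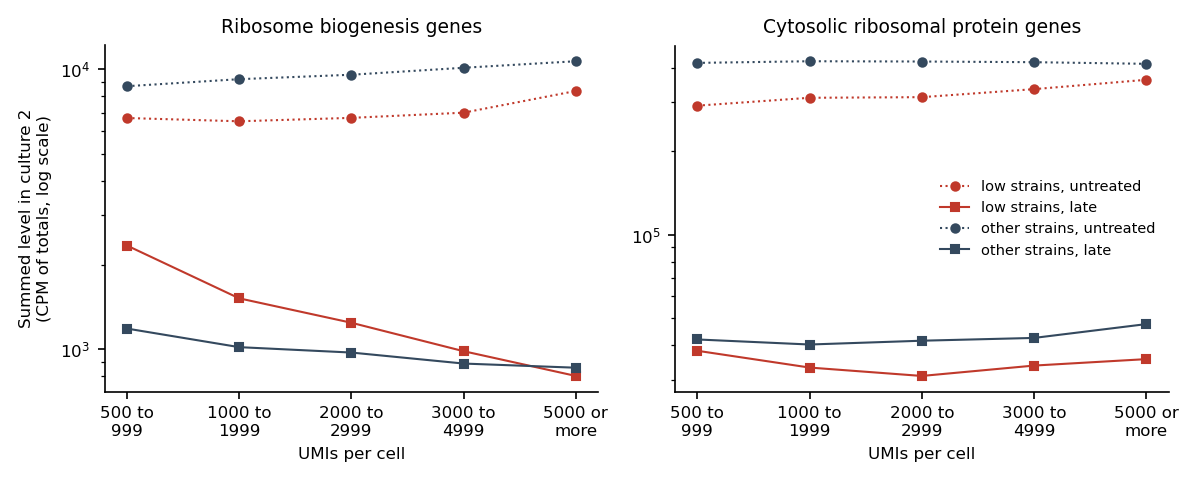
Summed level (CPM of totals, log scale) of ribosome biogenesis genes (left) and cytosolic ribosomal protein genes (right) in cells of culture 2, in 5 bands of UMIs per cell, untreated (dotted) and late (solid), for low strains (red) and other strains (dark). Late ribosome biogenesis levels differ most in the shallowest cells (2341 against 1181 CPM) and cross in the deepest (799 against 855), while ribosomal protein levels of low strains are lower in every band.

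The count of ribosome biogenesis calls rests on culture 2. Without its library 8, 16 of 77 were called and the median difference was 1.28. That fit called 244 of all genes, 132 of them higher, against 734 and 468 in the main fit. Over the other 7 libraries left out in turn, 43 to 60 were called, where 485 to 762 of all genes were. In culture 2 alone 48 were called with a median of 1.46, and without both late libraries of culture 1, 51. Those fits called 716 and 722 of all genes. Culture 1 alone, with 54 and 19 late low-strain UMIs on the list, called 0 and had a median of 0.05. It called 41 of all genes.

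Of the 10 highest differences among nuclear genes, 8 were of genes for ribosome assembly, and DRS1, for an RNA helicase of the large subunit's assembly, led them. DRS1 (YLL008W) stood at 103, 124, 104 and 117 CPM in untreated low strains and at 0, 29.2, 5.61 and 14.6 CPM late, the late values on 0, 1, 8 and 20 UMIs. In other strains it went from 267, 240, 224 and 205 CPM to 2.47, 2.72, 1.84 and 2.07. The late groups overlap only through the library without a UMI, and in culture 2 both low-strain values lay above all other-strain values. The response was -3.48 ± 0.26 (SE) in low and -6.80 ± 0.17 in other strains, a difference of 3.32 ± 0.40 with an adjusted p of 6.88e-06 in edgeR's test. Each of the 7 low codes fell less (-3.80 to -2.57) than any other code (-7.89 to -4.91), with 29 late UMIs split over the 7 low codes. The leading genes were chosen by their differences in these same counts, so separation of the codes for them is not separate support.

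The remaining 7 also had higher differences, and by strain code all 7 low codes fell less than any other code for 5 of them and 6 of the 7 for MAK16 and ARX1. Low strains held 0 UMIs of MAK16, SDA1, ARX1 and ENP2 in library 8 of culture 1 and 0 of YTM1, MRD1 and RLP24 in its library 7. Differences were 2.86 ± 0.46 for YTM1 and 2.81 ± 0.42 for MAK16, which act in large-subunit assembly. They were 2.76 ± 0.32 for SDA1 and 2.75 ± 0.52 for ARX1, needed for export of the large subunit, and 2.50 ± 0.35 for RLP24, part of its precursor. They were 2.69 ± 0.52 for ENP2 and 2.62 ± 0.33 for MRD1, which act on the small subunit's RNA. Adjusted p-values ran from 5.37e-06 for SDA1 to 0.0011 for ENP2. Without library 8 of culture 2, 3 of these genes lost the call, with adjusted p-values of 0.0505 for ARX1, 0.0581 for ENP2 and 0.0569 for YTM1. NSR1, for the nucleolar protein nucleolin, shows how much 1 library can carry: it stood at 382, 391, 378 and 379 CPM in untreated low strains, and late at 0, 0, 1.40 and 13.9 CPM on 0, 0, 2 and 19 UMIs. Its difference of 2.37 ± 0.51 (adjusted p 0.00278) went to -0.10 without library 8 of culture 2.

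The promoter of DRS1 is shown because DRS1 had the highest difference of the named genes. It holds the words GATGAG (the PAC element) and AAAATTT (the RRPE element) known from ribosome biogenesis promoters. The window runs from 250 bases before to 50 after the start of the annotated gene, here its start codon, from the reference genome of build R64, at chrXII:131479-131778 on the plus strand. Capitals mark every match of the 9 words searched on both strands: GTCAC (the R box of Rtg1 and Rtg3), TCCGNGGA (the drug response element), GATAAG (bound by nitrogen regulators), TGACTC (bound by Gcn4), AGGGG (the stress factors Msn2 and Msn4), CCAAT (the HAP complex), GGGTG (the iron regulator Aft1), and the PAC and RRPE words named above. The latter 2 were added after the leading genes were seen.
DRS1: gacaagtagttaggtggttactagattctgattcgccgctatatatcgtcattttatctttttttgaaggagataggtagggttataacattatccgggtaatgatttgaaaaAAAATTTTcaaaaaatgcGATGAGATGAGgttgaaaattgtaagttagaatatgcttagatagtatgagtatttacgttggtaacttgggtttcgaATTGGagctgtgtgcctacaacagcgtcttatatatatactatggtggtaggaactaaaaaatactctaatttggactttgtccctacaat
The paired GATGAG matches begin 119 and 114 bases before the start and overlap by 1 base, and 2 overlapping matches of AAAATTT or its reverse begin at 137 and 136 bases; 1 match of CCAAT begins at 41 bases. Among 6001 promoters of this length, 20.4% held GATGAG, 23.2% held AAAATTT and 7.75% held both. Of the 77 list genes 70 held both, and of the 468 genes with a called higher difference 182 held both (38.9%), against 3 of the 266 with a lower one (1.13%). Since these words are common in a list that fell in both strain sets, the counts describe which promoters the called genes have and no more.

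**Figure D4:**
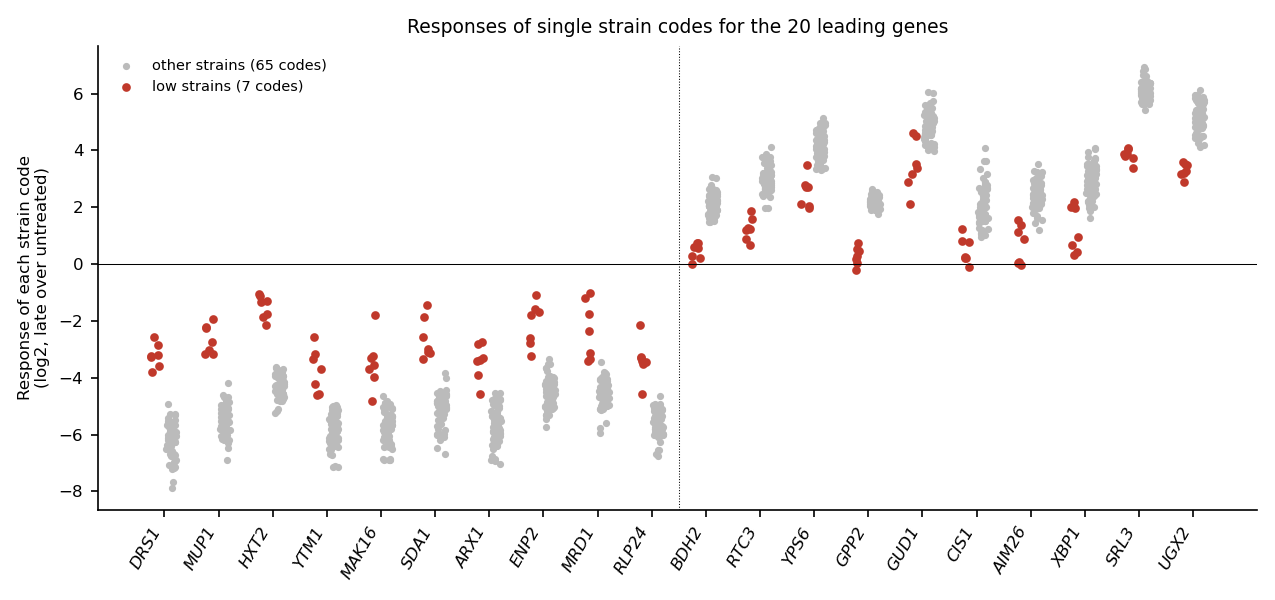
Late response (log2, late over untreated) of each strain code for the 20 leading genes, with the 7 low codes in red and the 65 other codes in grey; the 10 genes left of the dotted line have the highest and the 10 right of it the lowest differences of responses. For DRS1 the low codes lie between -3.80 and -2.57 and the other codes between -7.89 and -4.91, and for SRL3 the medians are 3.89 and 6.06. The genes were chosen by their differences in the same counts, so some separation follows from the choice.

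The other leading genes with a higher difference were transporters. MUP1, for a methionine permease, stood at 112, 69.7, 128 and 120 CPM in untreated low strains and at 13.6, 0, 11.2 and 21.2 late, on 1, 0, 16 and 29 UMIs. In other strains it fell from 157, 165, 199 and 205 CPM to 0.682, 2.31, 2.54 and 3.67. Its difference was 3.30 ± 0.55 (adjusted p 0.000764). HXT2, for a glucose transporter of a family with similar sequences, stood at 110, 139, 118 and 107 CPM in untreated low strains and at 109, 58.3, 22.4 and 48.3 late, and in other strains at 230, 218, 269 and 225 and then at 6.31, 5.03, 9.41 and 10.3 CPM. All 4 late low-strain values of HXT2 lay above every late value of other strains, those of culture 1 on 8 and 2 UMIs. Its difference was 3.21 ± 0.35 (adjusted p 5.44e-06). The promoter of MUP1 (chrVII:599167-599466, plus strand) holds 1 match of TGACTC, the word bound by Gcn4, 169 bases before the start, and 1 of GTCAC inside the gene.
MUP1: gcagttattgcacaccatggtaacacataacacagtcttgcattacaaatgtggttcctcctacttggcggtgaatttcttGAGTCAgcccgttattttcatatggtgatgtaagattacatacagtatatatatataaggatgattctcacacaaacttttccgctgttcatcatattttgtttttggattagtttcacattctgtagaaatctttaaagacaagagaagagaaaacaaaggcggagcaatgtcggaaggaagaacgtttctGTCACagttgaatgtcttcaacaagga
TGACTC or its reverse was found in 7.98% of the 6001 promoters.

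Genes for the mitochondrial translation and import machinery, all nuclear, included more higher than lower differences. Of 68 mitochondrial ribosomal protein genes, 33 fell and 2 rose in low strains, and 58 fell and 2 rose in other strains. The direction in low strains turns with the scaling: the median response of the 68 genes was -0.45 and became 0.39 relative to library totals, where 2 fell and 23 rose. The difference was called higher for 19 and lower for 0, where 8.6% of all genes were higher, with a median of 0.49. Their untreated sum was already larger in low strains, at 4915 to 5843 against 2897 to 3170 CPM, and late it was 4510 to 8082 against 2972 to 4587 CPM. The count fell to 2 without library 8 of culture 2, to 7 without its library 7 and to 0 with library totals. With only cells of 1000 to 3000 UMIs it fell to 2. Over all genes these fits called 132, 312, 177 and 307 higher, against 468 in the main fit. The strain test called 35 higher and 1 lower, where 15.3% and 19.5% of all genes were.

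Of 22 genes for mitochondrial import and chaperones, 9 differences were called higher and 1 lower, where 8.6% and 4.89% of all genes were. Without library 8 of culture 2, 4 were higher, and with library totals 0, where 132 and 177 of all genes were. HSP60, for the mitochondrial chaperonin, went from 856, 785, 909 and 976 CPM to 448, 467, 674 and 663 in low strains, and from 778, 786, 720 and 865 to 238, 276, 303 and 304 in other strains. The untreated groups overlapped, and the late groups did not. Its difference was 0.95 ± 0.19 (adjusted p 0.00126). Among 27 nuclear respiratory chain genes 4 differences were called higher (8.6% of all genes), QCR2 of complex III among them (0.71 ± 0.20, adjusted p 0.017), and 1 lower. Without library 8 of culture 2, 0 of the 27 were called higher (adjusted p 0.135 for QCR2), where 132 of all genes were. For HAP4, for the activating subunit of the HAP complex that drives respiratory genes, low strains stood at 37.8, 37.0, 32.5 and 43.9 CPM untreated and 54.3, 29.2, 40.6 and 60.0 late. Other strains stood at 68.2, 73.4, 60.0 and 66.8 CPM and then at 38.8, 36.7, 30.9 and 29.3. The gene fell in other strains (-0.999 ± 0.11), the low-strain response was 0.41 ± 0.20 (adjusted p 0.0752), and the difference was 1.41 ± 0.23 (adjusted p 0.000123).

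**Figure D5:**
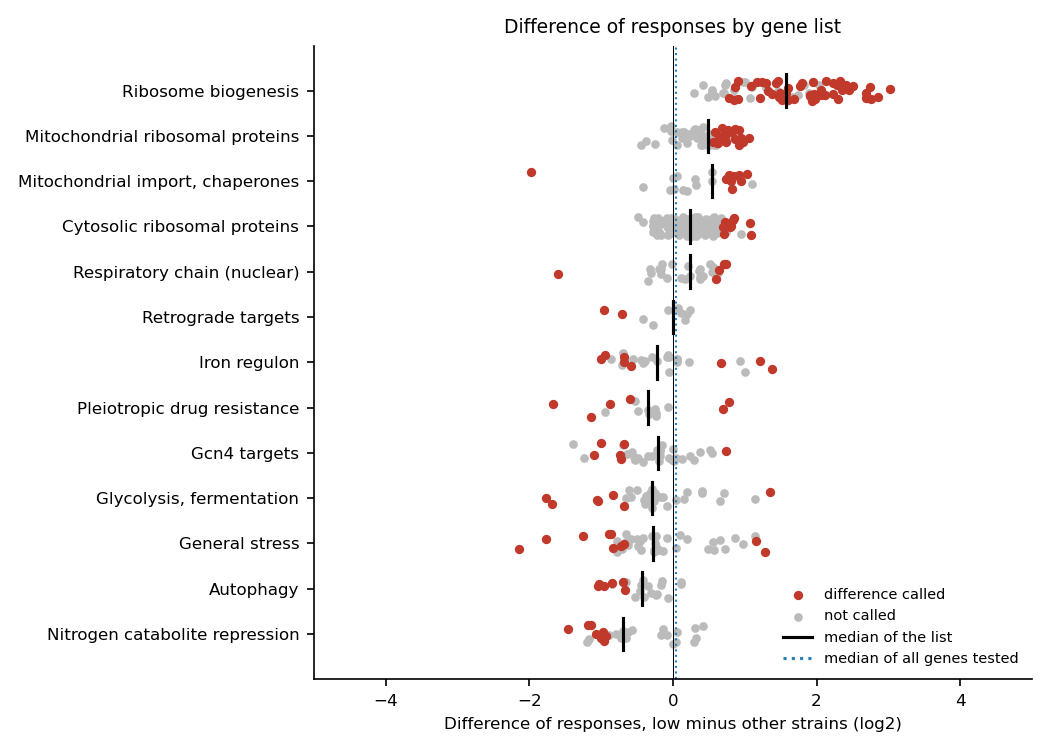
Difference of responses (log2, low minus other strains) of each tested member of 13 gene lists; red points passed a BH-adjusted p of 0.05, grey points did not, the black bar is the median of the list and the dotted line the median of all genes tested (0.04). Ribosome biogenesis has a median of 1.58 and nitrogen catabolite repression one of -0.70; mitochondrial ribosomal proteins have one of 0.49.

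Of the 2043 genes that rose in other strains, 248 had a called lower difference, where 4.89% of all genes did. The 10 lowest differences were all of genes with a higher untreated level in low strains, by 0.85 to 3.69 on the log2 scale. SRL3, for an inhibitor of cell cycle entry, stood at 33.9, 31.3, 36.5 and 30.6 CPM in untreated low strains and at 502, 642, 439 and 443 late. In other strains it stood at 12.2, 12.1, 11.7 and 11 CPM and late at 935, 889, 666 and 709. Neither pair of groups overlapped: low strains were above before the drug and below late. Its difference was -2.28 ± 0.21 (adjusted p 3.16e-07). UGX2 rose from 15.7, 7.11, 3.99 and 7.06 CPM, on 5 to 12 UMIs each, to 109, 58.3, 77.1 and 66.6 in low strains, and from 1.49, 1.73, 1.17 and 1.18 to 62.8, 64.6, 70.9 and 70.2 in other strains. Its late groups overlapped, so its difference of -2.30 ± 0.37 (adjusted p 0.000119) came with a higher start.

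GPP2, for a glycerol phosphatase, stood at 176, 189, 132 and 187 CPM in untreated low strains and 203, 146, 180 and 185 late, a response of 0.11 ± 0.16 (adjusted p 0.58). In other strains it rose from 50.1, 64.1, 45.8 and 54.2 to 173, 191, 208 and 215 CPM, and the difference was -1.77 ± 0.20 (adjusted p 4.12e-06). CIS1, whose product acts on the mitochondrial surface when import is compromised, stood at 39.1, 42.7, 45.6 and 27.4 CPM in untreated low strains and at 27.1, 87.5, 48.4 and 49.8 late. In other strains CIS1 rose from 2.01, 2.03, 2.67 and 1.64 to 9.64, 14.3, 9.10 and 10.7 CPM, with a difference of -1.98 ± 0.28 (adjusted p 4.04e-05). BDH2, related to butanediol dehydrogenase, stood at 162, 112, 106 and 140 CPM in untreated low strains against 8.87, 10.5, 10.7 and 9.83 in other strains, and its difference was -1.71 ± 0.23 (adjusted p 2.31e-05). Low strains were above other strains in every one of the 8 libraries for CIS1 and BDH2, with CIS1 on 2 and 3 UMIs in the late low-strain sums of culture 1.

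The last 5 were XBP1, a stress-induced repressor (-2.14 ± 0.36), GUD1, for guanine deaminase (-1.85 ± 0.43), YPS6, for a cell-surface protease (-1.76 ± 0.33), AIM26 (-2.02 ± 0.57) and RTC3 (-1.72 ± 0.43). AIM26 lost its call in 4 of the 8 fits that left out a library (adjusted p up to 0.115), RTC3 in 3 (up to 0.103) and GUD1 in 1 (0.121). The promoters of both leading genes are shown because their responses differed most among the genes that rose.
UGX2: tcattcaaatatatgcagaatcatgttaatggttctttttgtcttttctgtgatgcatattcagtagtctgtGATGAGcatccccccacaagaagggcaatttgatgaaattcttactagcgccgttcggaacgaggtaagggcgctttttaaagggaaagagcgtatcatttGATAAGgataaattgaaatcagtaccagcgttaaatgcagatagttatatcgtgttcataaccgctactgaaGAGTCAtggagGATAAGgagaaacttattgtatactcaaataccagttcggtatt
SRL3: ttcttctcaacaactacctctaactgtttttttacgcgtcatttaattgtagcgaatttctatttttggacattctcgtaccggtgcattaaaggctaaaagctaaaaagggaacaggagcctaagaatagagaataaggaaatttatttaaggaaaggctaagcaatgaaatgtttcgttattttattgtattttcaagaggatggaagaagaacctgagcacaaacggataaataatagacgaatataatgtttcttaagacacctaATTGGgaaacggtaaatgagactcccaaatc
The first (chrIV:158686-158985, minus strand) holds 2 matches of GATAAG, the word of the GATA factors that act in nitrogen regulation, at 77 bases before and 7 bases after the start, 1 of TGACTC 5 bases before it and 1 of GATGAG. The second (chrXI:611275-611574, plus strand) holds 1 match of CCAAT, inside the gene. GATAAG was found in 14.7% of the 6001 promoters, 51.9% of those of the 27 nitrogen-repression genes and 24.8% of those with a called lower difference, and CCAAT in 43.3% of all.

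Nitrogen catabolite repression genes, which serve the use of poor nitrogen sources, included lower differences. Of 27 tested, 25 rose in low and 27 in other strains, with medians of 2.84 and 3.35. The difference was called lower for 8 and higher for 0, where 4.89% of all genes were lower, and its median was -0.70. In 2 of the 8 fits without 1 library, those without library 2 or library 8 of culture 2, 4 of the 27 were called. With only cells of 1000 to 3000 UMIs 4 were called. Over all genes these fits called 152, 112 and 146 lower. GAP1, for the general amino acid permease, stood at 7.83, 11.4, 7.99 and 10.2 CPM in untreated low strains and 3.57, 4.37, 4.83 and 4.67 in other strains. Late it stood at 814, 642, 821 and 715 CPM and at 773, 662, 809 and 666. The untreated groups did not overlap and the late groups did, so its difference of -0.998 ± 0.27 (adjusted p 0.0131) came with the start. It lost the call without library 2 of either culture (adjusted p up to 0.0634). MEP2, for an ammonium permease, had a difference of -0.65 ± 0.24 (adjusted p 0.0784), and DAL80, a GATA repressor, one of -0.58 ± 0.87 (adjusted p 0.769) on 3 untreated low-strain UMIs in all.

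General stress genes rose in both sets, 33 of 42 in low and 36 in other strains. Of their differences 8 were lower and 2 higher, where 4.89% and 8.6% of all genes were. Without 1 library 3 to 7 were lower, where 112 to 221 of all genes were. The list stood higher in low strains both before the drug (median log2 ratio of low to other 0.82) and late (0.48). HSP12, for a membrane-protecting stress protein, had a difference of 0.09 ± 1.03 with 0 UMIs in both untreated low-strain sums of culture 2, and CTT1, for catalase, one of -0.46 ± 0.28 (adjusted p 0.314). Among 22 autophagy genes 6 differences were lower and 0 higher, among 34 genes of glycolysis and fermentation 6 and 1, and among 37 targets of the amino acid regulator Gcn4 5 and 1, read against the same shares of all genes. Leaving out each library in turn gave 1 to 5, 4 to 6 and 2 to 5 lower, where 112 to 221 of all genes were. For autophagy the fewest were called without library 1 of culture 2. In the strain test, where 19.5% of all genes were lower, 22 of 34 glycolysis genes and 24 of 37 Gcn4 targets were. HIS4, a histidine biosynthesis gene, and SNZ1, of vitamin B6 synthesis, were not called in the sums (-0.29 ± 0.18 and -1.39 ± 0.62; adjusted p 0.313 and 0.163) and were called lower in the strain test (-0.35 ± 0.06 and -1.40 ± 0.24; adjusted p 7.69e-07 and 1.48e-07).

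Retrograde targets rose in both sets. Of 10 tested, 7 rose in each, with medians of 1.51 in low and 1.42 in other strains, and 2 differences were called, CIT2 and PYC1, both lower, where 4.89% of all genes were. CIT2, for peroxisomal citrate synthase and the standard reporter of the pathway, stood at 124, 161, 165 and 134 CPM in untreated low strains and at 597, 525, 625 and 737 late. In other strains it stood at 43.0, 45.6, 90.2 and 83.9 CPM and late at 611, 612, 490 and 565. Low strains were above in all 4 untreated libraries, and the late groups overlapped. Its response was 2.15 ± 0.22 in low and 3.11 ± 0.20 in other strains, and the difference was -0.97 ± 0.29 (adjusted p 0.0305). The call was lost in 5 of the 8 fits without 1 library (adjusted p up to 0.119), and within culture 2 the strain test gave -0.56 (adjusted p 5.33e-09), while the sums of each culture alone gave -1.77 and -0.55; the difference between cultures was not tested. PYC1, for pyruvate carboxylase, had a difference of -0.71 ± 0.18 (adjusted p 0.0106; 0.0547 without library 1 of culture 2).

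Among the other members, ACO1, IDH1 and IDH2 stood higher in low strains before the drug and DLD3 did not. ACO1, for aconitase, stood at 980, 855, 904 and 912 CPM in untreated low strains and 196, 231, 259 and 287 in other strains. Its responses were 0.94 ± 0.20 and 1.35 ± 0.19, with a difference of -0.42 ± 0.28 (adjusted p 0.361) in the sums and of -0.40 ± 0.04 (adjusted p 1.35e-21) in the strain test. The sums of each culture alone gave -0.89 and -0.27 for ACO1, a spread that the strain test does not measure. IDH1 and IDH2, the isocitrate dehydrogenase subunits, stood at 421 to 469 and 638 to 694 CPM in untreated low strains, and at 129 to 192 and 174 to 230 in other strains. Their differences were 0.16 ± 0.29 and -0.28 ± 0.26 (adjusted p 0.797 and 0.554). DLD3, a cytosolic retrograde target, stood at 165 to 249 CPM in untreated low strains and 167 to 274 in other strains, overlapping, with a difference of 0.19 ± 0.24 (adjusted p 0.67). The regulators RTG1, RTG2 and RTG3 were not called (0.68 ± 0.92, 0.12 ± 0.23 and -0.86 ± 0.37; adjusted p 0.715, 0.806 and 0.13), and RTG1 and RTG3 had 3 to 19 UMIs in each untreated low-strain sum.

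The promoter of CIT2 is shown because it had the largest named difference among retrograde targets (chrIII:122279-122578, minus strand).
CIT2: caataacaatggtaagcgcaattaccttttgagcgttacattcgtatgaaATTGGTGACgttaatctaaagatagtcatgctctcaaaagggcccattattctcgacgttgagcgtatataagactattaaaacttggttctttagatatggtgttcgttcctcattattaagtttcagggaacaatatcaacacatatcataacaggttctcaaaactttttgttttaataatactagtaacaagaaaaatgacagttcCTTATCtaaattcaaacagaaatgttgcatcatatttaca
It holds 1 match of GTCAC, the R box of Rtg1 and Rtg3, 196 bases before the start and sharing 1 base with a match of CCAAT that begins 200 bases before it, and 1 of GATAAG inside the gene. GTCAC or its reverse was found in 26.4% of the 6001 promoters, in 4 of the 10 retrograde targets, in 26.9% of the genes with a called higher difference and in 27.8% of those with a lower one.

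Drug resistance and iron genes showed mixed differences. PDR5, for the main multidrug exporter, stood at 1190, 1073, 1378 and 1295 CPM in untreated low strains and 421, 428, 468 and 448 in other strains. Late it stood at 488, 262, 714 and 559 CPM and at 347, 288, 267 and 249. It fell in both sets (-1.11 ± 0.16 and -0.62 ± 0.14), the difference of -0.49 ± 0.21 was not called in the sums (adjusted p 0.135), and the strain test gave -0.39 ± 0.05 (adjusted p 1.46e-13). The sums of each culture alone gave -1.04 and -0.37 for PDR5. PDR3, its activator, had a difference of -0.34 ± 0.21 (adjusted p 0.312). Of 15 pleiotropic drug resistance genes, 2 differences were higher and 4 lower, where 8.6% and 4.89% of all genes were, with 0 to 2 higher and 2 to 4 lower when each library was left out, and 0 higher without either late library of culture 2. FET3, for the ferroxidase of high-affinity iron uptake, stood at 556, 578, 582 and 519 CPM in untreated low strains and 190, 87.5, 203 and 204 late, and in other strains at 530, 470, 533 and 498 and then 66.5, 75.0, 91.7 and 74.6. The sets overlapped before the drug and, apart from the low-strain value of 87.5 CPM on 3 UMIs, were separate late; the difference was 1.21 ± 0.18 (adjusted p 6.85e-05). FIT2, for a cell wall protein that retains iron carriers, fell further in low strains (-0.68 ± 0.22, adjusted p 0.0445), a call lost in 6 of the 8 fits without 1 library (up to 0.206). Of 27 iron regulon genes 3 differences were higher and 5 lower, against the same shares of all genes, and leaving out each library in turn gave 1 to 3 higher and 0 to 3 lower, with 0 lower without library 2 of culture 1 or library 8 of culture 2.
PDR5: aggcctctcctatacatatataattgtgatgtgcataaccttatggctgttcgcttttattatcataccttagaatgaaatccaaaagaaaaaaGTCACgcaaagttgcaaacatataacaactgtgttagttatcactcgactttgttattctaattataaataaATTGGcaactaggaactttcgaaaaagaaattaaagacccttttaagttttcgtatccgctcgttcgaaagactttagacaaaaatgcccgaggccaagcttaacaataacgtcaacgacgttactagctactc
FET3: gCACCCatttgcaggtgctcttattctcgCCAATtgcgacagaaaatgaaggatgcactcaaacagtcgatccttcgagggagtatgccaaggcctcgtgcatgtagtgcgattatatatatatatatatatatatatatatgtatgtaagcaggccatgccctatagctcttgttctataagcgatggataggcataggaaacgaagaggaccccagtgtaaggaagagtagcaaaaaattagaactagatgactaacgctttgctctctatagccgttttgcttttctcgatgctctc
These promoters are shown as the largest named differences of their lists. The window of PDR5 (chrXV:619590-619889, plus strand) holds no TCCGNGGA, the pleiotropic drug response element, which 1.22% of the 6001 promoters held, and 1 GTCAC and 1 CCAAT. Bases more than 250 before the start were not searched, so an element further upstream would not be seen. The window of FET3 (chrXIII:388572-388871, plus strand) holds 1 match of GGGTG, a core of the iron regulator's site, 249 bases before the start, and 1 of CCAAT, and GGGTG was found in 20.0% of all.

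In 7 genes, named after their values were seen, both responses were called and had opposite signs. HSP104, for a protein disaggregase, went from 125 ± 19.1 CPM (SD, n = 4) to 225 ± 38.4 in low strains and from 167 ± 16.1 to 129 ± 23.9 in other strains (0.92 and -0.37; difference 1.29, adjusted p 0.000145). ENO1, for an enolase that shares most of its sequence with ENO2, went from 807 ± 106 to 439 ± 191 CPM in low strains and from 238 ± 25.2 to 487 ± 53.5 in other strains (-0.65 and 1.03; difference -1.69, adjusted p 1.93e-05). RSB1, for a sphingoid base transporter, went from 77.1 ± 7.88 to 38.6 ± 14.7 and from 15.2 ± 0.760 to 22.7 ± 1.00 CPM (difference -1.68, adjusted p 1.93e-05). The others were CAB2 and UBP16, higher in low strains, and GPI12 and YGR016W, lower. Relative to library totals HSP104, CAB2 and UBP16 rose in both sets (1.74 and 0.71 for HSP104), ENO1 and GPI12 rose in other strains with low-strain values of 0.14 and 0.28 (adjusted p 0.535 and 0.383), and the differences kept their sign in all 7. With library totals the difference of UBP16 was not called (adjusted p 0.12). Without library 8 of culture 2 the differences of CAB2, UBP16, GPI12 and YGR016W were not called (adjusted p 0.0616, 0.073, 0.149 and 0.0769). In culture 2 alone the other-strain response was 0.02 for HSP104 and -0.09 for UBP16 (adjusted p 0.889 and 0.479). With cells of 1000 to 3000 UMIs it was 0.002 for HSP104 and -0.07 for CAB2 (adjusted p 0.99 and 0.636). The fall of HSP104 in other strains therefore depends on the fit.

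Low strains also lost ground as a share of cells. They made up 3.76% of wild-type cells in the first and 0.768% in the last library of culture 1, and 5.09 and 3.79% in culture 2. The course was not a steady loss after the drug. In culture 1 the share was already 3.16% from -10 to 0 min, and in culture 2 it reached 5.71% from 20 to 30 min. For each code the share of wild-type cells late was divided by its untreated share. The ratio was 0.0827 to 0.553 for low codes and 0.552 to 1.39 for other codes in culture 1, and 0.668 to 0.901 against 0.784 to 1.19 in culture 2. In culture 1, 6 of 7 low codes lay below every other code, and in culture 2, 4 of 7. The mean log2 ratio was lower by 1.96 and 0.37, and a two-sided permutation test over codes gave an adjusted p of 1e-05 in each culture, the smallest that 100000 resamples can give. Low-strain cells held fewer UMIs, with medians at 47.9 to 91.7% of those of other strains in the same library, and no deposited cell had under 500 UMIs, so fewer cells and more cells under the filter cannot be told apart.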

How the data were processed

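UMI counts of single cells were analysed, from a table the authors deposited with 1 row per cell: counts per gene, strain code, genotype, culture and collection interval. Per the labels' protocols the libraries were made with the 10x Genomics single-cell 3' kit (v3.1 chemistry), and per the submitters' processing notes bcl2fastq, kallisto 0.46.1, bustools 0.39.3 and the build sacCer3 were used. The series states 173361 cells and the table holds 173347, none under 500 UMIs; the sources used here give neither the filter on cells nor a treatment of doublets, and no doublet caller was run. The deposited time value of each cell (another unit, minutes) was not used in a test. No column of per-sample values was left unused (0).

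UMIs were summed per strain set and library over the untreated and late intervals, and 16 sums were fitted with edgeR 4.0.16 (R 4.3.3, limma 3.58.1): filterByExpr, TMM factors, quasi-likelihood F-tests without a replicate block, and BH adjustment over all genes tested at 0.05. Fold changes of the fits use edgeR's default prior count, so they are damped little at 0 UMIs (HSP12, difference of 9.79 in culture 2 alone). Each ± after a log2 value is its size divided by the square root of the test's F statistic, an approximate SE. CPM of single genes are on TMM-scaled library sizes and CPM of totals are not. A second fit used the strain codes as units, with the code as a block. The named genes are the 10 highest and the 10 lowest called differences among nuclear genes with a mean of at least 10 CPM and the same sign in both cultures, plus 28 fixed genes. The members and the gene lists were chosen with earlier results of these data known. Strain sets shared flask and library by design; the deviations of same-numbered cultures correlated at 0.72 between the untreated sums of the sets, at 0.22 between their late sums, and at 0.04 to 0.15 across periods. Tests were tried on simulated counts first. Alternatives were other scalings, filters, blocks, DESeq2 1.42.0, thinning, libraries or strain codes left out and, chosen after the data were seen, single cultures, removal of other strains' RNA and cells of 1000 to 3000 UMIs. Intervals cover counting error only. Promoters came from the RefSeq genome of build R64, read by coordinates; 5812 of 5843 features matched its genes.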

Additional observations from a re-analysis of the deposited data

Results flagged for a closer look

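Some low-strain values lay far from the other 3 of their group, by a test that chance meets in about 1 of 20 groups; 6 of 252 groups were marked. Before the drug, PDR3 stood at 55.5 CPM and CTT1 at 17.1 CPM in library 2 of culture 1, above the other 3 libraries, and mating type a genes summed to 25.4 CPM in library 1 of that culture. Late, FET3 stood at 87.5 CPM in library 8 of culture 1 (3 UMIs), NSR1 at 13.9 CPM in that of culture 2, and the nitrogen catabolite repression list at 10546 CPM of totals in library 7 of culture 2.

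The late responses of the strain sets differed, by the test of the difference itself, for 734 genes over the sums and for 1888 with strain codes as units. Among the named genes the difference (log2, low minus other) was higher for DRS1 (3.32), MUP1 (3.30), HXT2 (3.21), YTM1 (2.86), MAK16 (2.81), SDA1 (2.76), ARX1 (2.75), ENP2 (2.69), MRD1 (2.62), RLP24 (2.50), NSR1 (2.37), HAP4 (1.41), FET3 (1.21), HSP60 (0.95) and QCR2 (0.71). It was lower for UGX2 (-2.30), SRL3 (-2.28), XBP1 (-2.14), AIM26 (-2.02), CIS1 (-1.98), GUD1 (-1.85), GPP2 (-1.77), YPS6 (-1.76), RTC3 (-1.72), BDH2 (-1.71), GAP1 (-0.998), CIT2 (-0.97), PYC1 (-0.71) and FIT2 (-0.68).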

How the results depend on the processing

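The count of 734 called differences moved to 1513 with each library as a block, 465 with 1 coefficient per strain set and interval, 355 with sums thinned to the smaller set, 252 under the stricter filter, 213 with the intervals of a period summed, 124 for the last against the second interval, 453 with cells of 1000 to 3000 UMIs and 41 in culture 1 alone. Leaving out 1 library gave 244 to 762, with 132 to 546 higher and 112 to 221 lower. The low-strain count of 3106 moved to 1018 under the stricter filter and 1099 in culture 1 alone, and the other-strain count to 1171 under the stricter filter. The remaining 97 alternatives for counts stayed within 1.5 times; with the culture as a block 926 were called. Strains as units in culture 1 alone gave no value. Of 3640 alternatives for single genes, 64 reversed a sign, 2 of them for the 29 genes with a called difference, both NSR1 (-0.095 to 3.05 with 1 library left out, the lowest without library 8 of culture 2, and -7.09 in culture 1 alone). With library totals, differences turned for DLD3 (-0.073; -0.16 over strains), IDH1 (-0.14; -0.18), RTG2 (-0.11), HSP12 (-0.13; -0.069) and RPL3 over strains (-0.045), and low-strain responses for HSP60 (0.27) and FPR1 (0.24). In culture 1 alone, differences turned for DLD3 (-0.050), IDH1 (-0.46), RTG2 (-0.33), HSP12 (-1.19) and CTT1 (0.32), and low-strain responses for RTC3 (-0.96), IDH1 (-0.68), IDH2 (-0.33), RTG2 (-0.35) and QCR2 (-0.22). In culture 2 alone DAL80 turned (0.38; 0.30 over strains), as did RTG2 (-0.16). For the last against the second interval, low-strain responses turned for GPP2 (-0.065), BDH2 (-0.19), IDH1 (-0.16), IDH2 (-0.28) and RTG2 (-0.089), and differences for RTG2 (-0.23) and HSP12 (-0.76). With cells of 1000 to 3000 UMIs, GPP2 in low strains (-0.072) and the differences of RTG2 (-0.27), HSP12 (-0.43) and CTT1 (0.034) turned, and with thinned sums those of CTT1 (0.043) and FPR1 (0.011). Under the culture block IDH1 in low strains was -0.041, with DESeq2 it was -0.0075 and HSP12 -0.15, under the stricter filter RTG2 was -0.070, without both late libraries of culture 1 RTG2 was -0.057, and with summed intervals FPR1 was 0.0075. Leaving out 1 library or strain code turned uncalled values: low-strain responses of BDH2 (-0.10 to 0.61), IDH1 (-0.14 to 0.32), IDH2 (-0.13 to 0.35) and RTG2 (-0.10 to 0.49), and differences of RTG2 (-0.12 to 0.32; -0.17 to 0.011 over strains), HSP12 (-0.74 to 1.98; -0.16 to 1.73 over strains), IDH1 over strains (-0.0089 to 0.033) and FPR1 (-0.11 to 0.00046), as ranges. In each case named here the cause was not tested. Depth limits the late low-strain values of culture 1 most.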
